A study of Drosophila melanogaster with 6 samples.

Results

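The imaginal disc growth factors of Drosophila melanogaster, Idgf1 to Idgf6, were read in adult fly heads at 25 and at 2 days of age. They were taken by name, as every probe set (a group of short probes that read 1 transcript) that the array's gene table gives to 1 of these 6 genes alone. This gave 7 probe sets of 18769, with 2 for Idgf3 and 1 for each other gene. A further probe set that the table gives to both Idgf4 and CG4982 was left out. No measured value entered this choice, but the family was picked out with earlier results of these arrays known. Calls on its members are therefore a description of these arrays and no independent evidence of a change.

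The aged group was 3 arrays of whole heads at 25 days and the young group 3 arrays of whole heads at 2 days. Flies of both ages had the strain background W* and carried P{GawB}elavC155, a transposon that sits at elav, a gene of neurons, and makes them produce the yeast activator GAL4. No untransformed strain was among the samples, so each value belongs to flies with this insertion. The labels give neither the sex of the flies nor whether replicates were separate batches of flies. Every error therefore rests on the spread among these arrays, which may be technical. Expression values are RMA values in log2 units, so that a difference of 1 means a 2-fold change. With so few arrays, precision is limited.

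Idgf proteins are secreted and belong to the chitinase family, one of the families of glycosyl hydrolases, but have lost a residue that chitinases need to cut chitin, and so are called chitinase-like. They were found as factors that promote the growth of cultured imaginal disc cells together with insulin, and related chitinase-like proteins of mammals, such as YKL-40, are known from inflammation and tissue remodelling. In the fly they are known mainly from the fat body, haemocytes (blood cells) and the haemolymph (the insect's blood), and they take part in cuticle formation and wound healing.

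All 7 Idgf probe sets were higher on each of the 3 aged arrays than on any young array. The differences ran from 0.18 for Idgf4 to 0.65 for Idgf1 on the log2 scale (1.13-fold to 1.56-fold), with a median of 0.39, against a median of -0.02 over all 18769 probe sets. The ages failed to overlap at 40.8% of all probe sets, and at 21.7% with the aged arrays on top. In a limma fit over all probe sets, with Benjamini-Hochberg adjusted p under 0.05 as the call, 5 of the 7 members were called, each higher in aged heads. Over the whole array 21.7% of probe sets were called, 13.0% higher (2438) and 8.70% lower (1633) in aged heads, whereas centring each array on its median gave 1859 higher and 1951 lower and kept all 5 Idgf calls. The called members were Idgf1, Idgf2, the brighter probe set of Idgf3, Idgf5 and Idgf6. Idgf4 and the dimmer probe set of Idgf3 were not called. Calls were more frequent among bright probe sets, and all 7 Idgf probe sets lay above the median level. A separate fit of the 9385 probe sets at or above that level called 4525, of which 2847 were higher and 1678 lower in aged heads. In that fit 6 of the 7 Idgf probe sets were called, each higher.

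**Figure D1:**
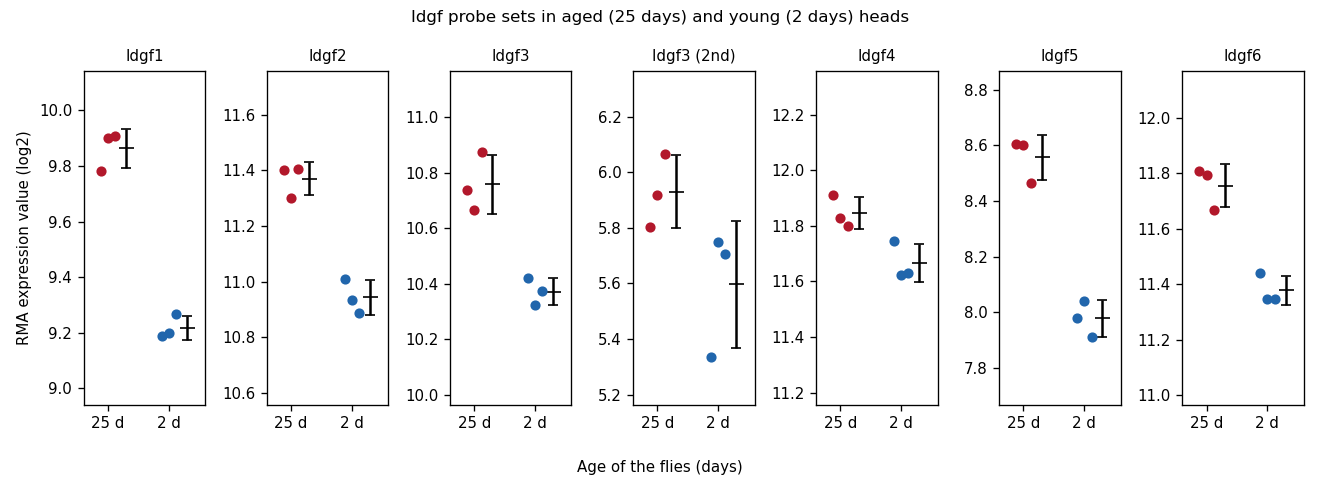
RMA expression values (log2, vertical axes of equal span but different position) of the 7 Idgf probe sets on the 3 arrays at 25 days (red, left) and the 3 arrays at 2 days (blue, right), with black marks for the mean ± SD of each age. In every panel the 3 aged points lie above the 3 young points, with the widest gap for Idgf1 and the narrowest for Idgf4 and for the dimmer Idgf3 probe set.

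Idgf1, Idgf2 and Idgf3 lie side by side on chromosome arm 2L in the RefSeq annotation (Release 6 plus ISO1 MT). Idgf1 (CG4472, probe set 1633237_at) encodes 1 of the secreted factors on which the name of the family rests. It read 9.78, 9.90 and 9.91 on the aged arrays, against 9.19, 9.20 and 9.27 on the young arrays. The lowest aged array stood 0.52 above the highest young array, a gap wider than the spread within either age. The aged mean of 9.86 ± 0.07 exceeded the young mean of 9.22 ± 0.04 (SD, n = 3 arrays each) by 0.65 ± 0.07 (SE), with a 95% interval of 0.49 to 0.80, or 1.56-fold. Each SE and interval given here comes from limma, which draws the variance of a probe set toward a value common to all probe sets. The intervals are not adjusted for the number of probe sets.

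Idgf2 (CG4475, 1640202_at), likewise known as a growth factor for cultured disc cells, read 11.40, 11.30 and 11.41 in aged heads, against 11.01, 10.94 and 10.89 in young heads. All 3 aged arrays were higher by at least 0.29, and the arrays of each age lay within 0.12 of each other. The means were 11.37 ± 0.06 in aged and 10.94 ± 0.06 in young heads, a difference of 0.43 ± 0.07 (95% interval 0.27 to 0.59), or 1.34-fold.

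Idgf3 (CG4559), whose protein is known from haemolymph clots and wound healing, had 2 probe sets. The brighter one (1623643_s_at) read 10.74, 10.66 and 10.87 in aged heads, against 10.42, 10.32 and 10.37 in young heads. Its difference was 0.39 ± 0.08 (95% interval 0.21 to 0.57), or 1.31-fold, between means of 10.76 ± 0.11 in aged and 10.37 ± 0.05 in young heads. Aged replicate 3 was the highest array of this probe set. With aged replicate 3 and young replicate 2 both left out, the call was lost at a difference of 0.30, whereas it held when any single array was left out. The suffix _s_at marks probe sets whose probes can match more than 1 transcript or gene.

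The dimmer Idgf3 probe set (1626301_at) read 5.80, 5.92 and 6.07 in aged heads, against 5.33, 5.75 and 5.71 in young heads. Here young replicate 1 stood apart from the other young arrays, and the lowest aged array exceeded the highest young array by only 0.05. The difference of 0.33 ± 0.13 (95% interval 0.04 to 0.63) was not called. It ran the same way as that of the brighter probe set, and their intervals overlap. Without aged replicate 3 it was 0.26, and without young replicate 1 it was 0.20.

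Idgf4 (CG1780, 1635389_s_at), on the X chromosome, encodes another secreted member of the family. Its values were 11.91, 11.83 and 11.80 on the aged arrays, against 11.75, 11.62 and 11.63 on the young arrays. The ages were separated by 0.05 only, the distance from aged replicate 3 to young replicate 1. The difference of 0.18 ± 0.07 (95% interval 0.02 to 0.34), or 1.13-fold, between 11.85 ± 0.06 in aged and 11.67 ± 0.07 in young heads, was not called. It was called, at the same difference, with limma's intensity-dependent robust prior and when dim probe sets were left out, both of which change only its standard error and the adjustment.

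Idgf5 (CG5154, 1631867_at) and Idgf6 (CG5210, 1641259_at) are on arm 2R, apart from each other. Idgf5 is likewise a secreted chitinase-like protein gene. Its values were 8.61, 8.60 and 8.46 on the aged arrays, against 7.98, 8.04 and 7.91 on the young arrays. The gap between the ages was 0.42, the widest after that of Idgf1, and the difference was 0.58 ± 0.07 (95% interval 0.41 to 0.75), or 1.49-fold. Mean values were 8.56 ± 0.08 in aged and 7.98 ± 0.07 in young heads.

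Idgf6, first isolated as a protein that fly cells of haemocyte type release into their culture medium, read 11.81, 11.79 and 11.67 in aged heads, against 11.44, 11.35 and 11.35 in young heads. Aged replicate 3 was the lowest aged array and still lay 0.23 above young replicate 1, the highest young array. Its difference was 0.38 ± 0.07 (95% interval 0.21 to 0.54), or 1.30-fold, between 11.76 ± 0.08 in aged and 11.38 ± 0.05 in young heads.

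The members did not rank the aged arrays alike. Aged replicate 3 was the highest aged array for all 4 probe sets of the 3 genes on 2L, by little for Idgf1 and Idgf2, and the lowest for all 3 probe sets of Idgf4, Idgf5 and Idgf6. All 7 probe sets lay above the median level of the array (4.92). Levels of different probe sets cannot be set against each other on these arrays, so no order of abundance among the Idgf genes is given.

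Taken within each array, the log2 difference between a pair of members shows whether their probe set values moved by the same amount. Its own level depends on the probes. Its shift may depend on them too, so whether the transcripts themselves changed by unequal amounts was not tested. Idgf1 minus Idgf4 was -2.13, -1.93 and -1.89 on aged arrays, against -2.56, -2.42 and -2.36 on young arrays, a shift of 0.47 with no overlap. Idgf4 minus Idgf5 shifted by -0.40, again without overlap. Idgf1 minus Idgf5 was 1.18, 1.30 and 1.44 on aged arrays, against 1.21, 1.16 and 1.36 on young arrays, so the pair with the largest differences overlapped between the ages. Idgf3 minus Idgf6 shifted by 0.01, less than the SD of 0.18 between aged arrays. These pairs were chosen from all 15 after their values were seen, and their shifts were not tested.

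The chitinases, the nearest relatives of the Idgf proteins, went both ways. Of 12 listed relatives, 11 had a probe set, read for each gene through the one with the highest mean. Of these 11, 2 were higher, 3 were lower and 6 did not pass. Their median difference was 0.02, and over all 11982 genes read in this way, 26.5% were called, 15.8% higher and 10.7% lower in aged heads. Cht7 and Cht2 fell by amounts that differed by less than their errors. Cht7 read 4.28, 4.22 and 4.19 in aged heads, against 5.65, 5.64 and 5.88 in young heads, a difference of -1.49 ± 0.08 (limma adjusted p = 9.37e-05). Cht2 fell by 1.49 ± 0.07, to 4.87 ± 0.08 in aged heads, against 6.36 ± 0.07 in young heads (SD, n = 3 arrays each, limma adjusted p = 6.12e-05). Cht6 fell by 0.60 ± 0.12. The aged level of all 3 was under the array's median level (4.92). No background level was estimated, so whether background shrank these differences was not tested. The other probe sets of Cht6 stood at -1.08 and -0.22.

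The relatives that rose were Cht5, a chitinase of the moulting cuticle in insects, by 0.42 ± 0.09, and CG8460 by 0.38 ± 0.08. CG8460 read 7.36, 7.32 and 7.20 in aged heads, against 6.80, 7.03 and 6.92 in young heads. When aged replicate 2 or young replicate 3 was left out, only the 3 falls were called. Without aged replicate 1 the count was also 3, since CG8460 and Cht6 lost their calls. The 6 relatives that did not pass, Cht4, Cht8, Cht9, Cht10, Cht11 and Cht12, differed by -0.10 to 0.23. Cht11 alone among them stood above the median level. The fit of probe sets at or above that level called 2847 of 9385 higher and 1678 lower. All 5 relatives in that fit were called, 3 higher and 2 lower, with Cht11 (0.21) among the higher.

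**Figure D2:**
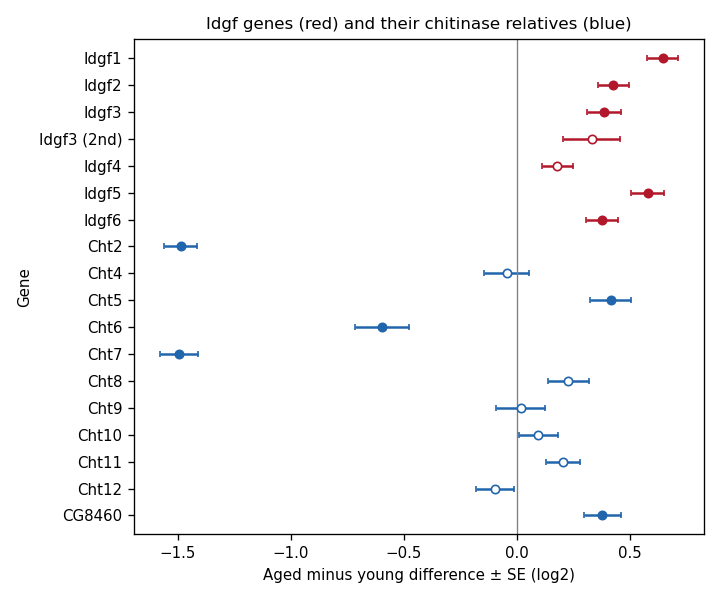
Aged minus young difference ± SE (log2, horizontal axis, limma over 3 aged and 3 young arrays) of the 7 Idgf probe sets (red) and of 11 chitinase relatives (blue), with filled points for called and open points for uncalled genes. All Idgf points lie right of 0, between 0.18 and 0.65, while Cht2 and Cht7 lie at -1.49.

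Genes that make, deacetylate or organise chitin mostly fell. Of 15 listed, 14 had a probe set, of which 1 rose, 9 fell and 4 did not pass, with a median of -0.76. Over all 11982 genes, 15.8% were called higher and 10.7% lower. The fit of probe sets at or above the median level called 1678 of 9385 lower, and 8 of the 12 chitin genes there. The chitin deacetylase genes serp (-2.28 ± 0.09), verm (-1.30 ± 0.17), Cda4 (-1.85 ± 0.18) and Cda5 (-0.53 ± 0.07) were lower in aged heads. So were the chitin-binding protein genes Gasp (-1.86 ± 0.10), obst-B (-1.81 ± 0.08) and obst-A (-1.12 ± 0.08), and kkv (-0.98 ± 0.12), the gene of the cuticle's chitin synthase. The aged means of Cda4, obst-B and kkv (4.32, 4.41 and 3.61) were under the array's median level. Whether background shrank their differences was not tested. Gfat1, of the first step of the pathway to the chitin precursor, fell by 0.26 ± 0.07, and only the fit without young replicate 2 kept its call among those that leave out 1 array (its other probe set stood at 0.06). The only member that rose was knk (0.42 ± 0.11), whose product protects chitin in the cuticle. Its call was lost without any 1 of the aged arrays and under either other scaling of the arrays.

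Whole heads hold fat body, haemocytes, glia and neurons, and fewer cells of a type cannot be told apart from less RNA per cell in such samples. Of 8 listed haemocyte genes, 5 rose, 1 fell and 2 did not pass, against 15.8% called higher and 10.7% lower over all 11982 genes. The fit of probe sets at or above the median level called 2847 of 9385 higher, and 5 of the 7 haemocyte genes there. The haemocyte genes that rose were the scavenger receptor gene Sr-CI (0.75 ± 0.11), the GATA factor gene srp (0.75 ± 0.11), the clotting protein gene Hml (0.69 ± 0.11), and the phagocytosis receptor genes NimC1 (0.60 ± 0.13) and eater (0.42 ± 0.10). Hml read 9.01, 9.14 and 9.42 in aged heads, against 8.49, 8.48 and 8.54 in young heads, so aged replicate 3 was its highest array. Pxn, which encodes peroxidasin, fell by 0.90 ± 0.11, He differed by 0.25 and crq by 0.09. Summed on the linear scale, the list stood at 2751 to 3101 in aged and 2325 to 2549 in young heads. Bright probe sets weigh most in such a sum, and brightness depends on the probes, so it is no measure of abundance. The blood cell marker He was under the array's median level at both ages, and none of the 8 was absent from the array. Without aged replicate 3, 3 of these genes rose and 1 fell, with NimC1 and eater uncalled. The call of NimC1 was also lost without aged replicate 1 and without young replicate 3. That of eater was also lost without aged replicate 2 and under quantile normalization of the arrays. The part of haemocytes in the Idgf differences was not tested.

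On all 6 arrays no gene of the fat body and haemolymph list was called. Of 12 listed genes, 8 had a probe set, and none of these 8 passed in limma, either adjusted or at an unadjusted p under 0.05. Over all 11982 genes, 26.5% were called. Lsp2, a storage protein of the fat body, read 12.07, 12.13 and 11.15 in aged heads, against 11.97, 12.09 and 12.01 in young heads. Its difference of -0.24 was 0.08 without aged replicate 3, the only aged array below the young ones, and it was not called in either fit. The lipoprotein gene apolpp averaged 12.89 in aged and 12.82 in young heads. The list's sum on the linear scale was 10936 to 14003 in aged and 12378 to 14799 in young heads, but apolpp and Lsp2 made up 77.4% to 89.7% of it, so it says little of the other members. Fbp1 and Fbp2, known from larval fat body, were under the array's median level at both ages. Fat body was not tested as a source of the Idgf differences either.

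The yolk protein genes, which female fat body transcribes, differed widely among the young arrays. Yp1 read 6.05, 6.47 and 5.87 in aged heads, against 4.02, 7.76 and 10.17 in young heads. Yp1 spanned 6.15 on the log2 scale over the same 3 young arrays on which Idgf1 spanned 0.08 and the other Idgf probe sets 0.09 to 0.41, the widest being the dimmer probe set of Idgf3. Young replicate 1 was the lowest young array for Yp1, for that Idgf3 probe set and for Idgf1. For Idgf2, the brighter Idgf3 probe set, Idgf4 and Idgf6 it was the highest young array, and for Idgf5 neither. Yp1 differed by -1.18 on all arrays, uncalled, by 0.24 without young replicate 3, uncalled, and by -2.83 without young replicate 1, when it was called (limma adjusted p = 0.0291). All 7 Idgf probe sets kept their call or lack of call when either array was left out, with the dimmer Idgf3 probe set at 0.20 without young replicate 1.

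**Figure D3:**
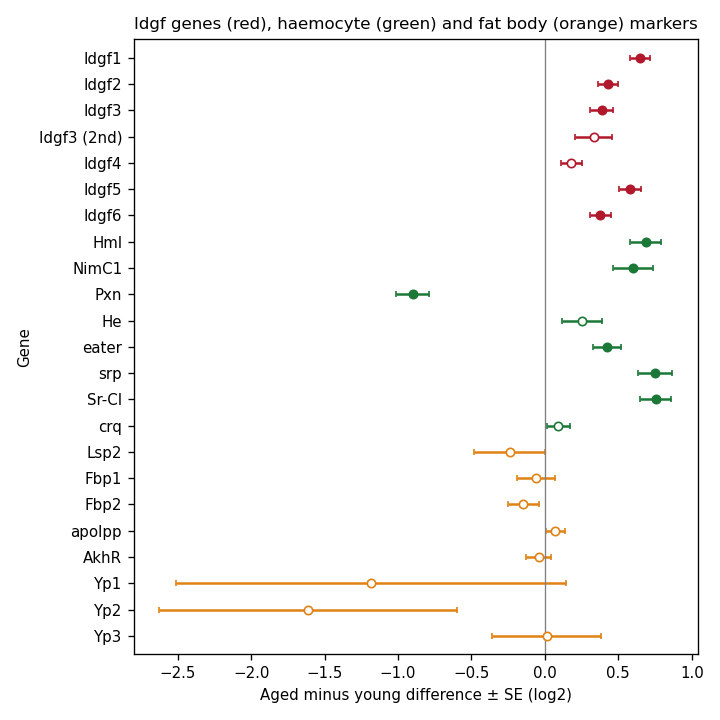
Aged minus young difference ± SE (log2, horizontal axis, 3 aged and 3 young arrays) of the 7 Idgf probe sets (red), 8 haemocyte genes (green) and 8 fat body and haemolymph genes (orange), with filled points for called genes. Haemocyte points lie right of 0 except Pxn at -0.90, fat body points carry no call, and the yolk protein genes have the widest errors.

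Among clotting and melanization genes, PPO1, a prophenoloxidase gene, rose by 0.59 ± 0.09 and the transglutaminase gene Tg fell by 0.34 ± 0.09. The clot protein gene fon (0.17 ± 0.07) and PPO2 (-0.11 ± 0.10) did not pass. The call of Tg was lost when any aged array or young replicate 3 was left out. In the other lists 4 of 7 glial genes fell, namely nrv2 (-0.83), Mdr65 (-0.76), alrm (-0.48) and Gs2 (-0.38). Of 4 neuronal genes 1 fell, the active zone gene brp (-0.44). Its other probe sets stood at 0.46, 0.11 and 0.05 without passing. Those at 0.11 and 0.05 were under the array's median level at both ages. Of 5 photoreceptor genes 2 fell, chp (-0.53) and trp (-0.33), a channel gene of the light response. Over all 11982 genes, 15.8% were called higher and 10.7% lower. All measured glial, neuronal and photoreceptor genes lay at or above the median level, where the fit of such probe sets alone called 1678 of 9385 lower. Among the fits that leave out 1 array, brp was called only without young replicate 2 and trp only without young replicate 1. On all 6 arrays no member of these 3 lists was called higher by limma, and 1 was higher at an unadjusted p under 0.05, the synaptic vesicle gene nSyb (0.30, adjusted p = 0.0985). It was called higher, at 0.30 to 0.39, with the robust prior, with array weights, with the replicate block and without young replicate 1, and in that last fit it was the only neuronal call. The neuronal gene elav itself, at which the insertion lies, averaged 10.22 in aged and 10.31 in young heads and did not pass.

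The genes next to the Idgf genes did not share one direction of difference, although all those called on all 6 arrays were higher. Each Idgf gene's nearest 2 measured genes on either side in the RefSeq order gave 16 genes outside the family. On all 6 arrays 5 of the 16 rose and 11 did not pass, and none fell. Over all 11982 genes, 15.8% were called higher and 10.7% lower. By limma's unadjusted p under 0.05, 6 of the 16 neighbours were higher and 4 lower. Among the alternative fits, CG5888 and Pgant9 were each called lower in 3, dac in 2 and Sfp53D in 1 (-0.35 to -0.18), and CG1791 was called higher in 1 (0.19). Beside the 2L cluster, CG5888 (-0.18 ± 0.06) and dac (-0.24 ± 0.10), which flank it, pointed down without passing. Nepl8 was under the array's median level at both ages. Beyond CG5888, jhamt, which encodes the methyltransferase of juvenile hormone synthesis, rose by 1.28 ± 0.26. It read 5.79, 5.91 and 6.81 in aged heads, against 4.74, 4.87 and 5.06 in young heads, so aged replicate 3 was its highest array. Its young mean of 4.89 lay just under the array's median level (4.92), and whether background shrank the rise was not tested.

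Beside Idgf5, the immune peptide genes BomS5 (0.80 ± 0.07) and BomS6 (0.59 ± 0.08) rose on one side. On the other GstE1, a glutathione S-transferase gene, rose by 0.33 ± 0.08 and GstE10 was under the array's median level. BomS6 averaged 12.31 ± 0.03 in aged and 11.72 ± 0.11 in young heads. Near Idgf4, CG1889 rose by 0.36 ± 0.09 and CG1791 (0.19 ± 0.07) did not pass. The 4 neighbours of Idgf6 did not pass, at differences of -0.25 to -0.05, and 3 of them were under the array's median level. The calls of GstE1 and CG1889 were each lost when single arrays were left out. That of GstE1 was also lost with arrays centred on their medians. That of CG1889 was also lost under quantile normalization and with the replicate block.

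For each called Idgf gene, the 3 genes with the most similar profile were sought among 7531 genes at or above the median level, by the root mean square difference over the 6 arrays after each profile was centred on its mean. For Idgf1 these were LeuRS, which encodes a leucyl-tRNA synthetase, CG5114 and CG11841, at 0.04 to 0.05 on the log2 scale. Those for Idgf2 were eRF3, of translation termination, fat-spondin and Wdr59, at 0.01 to 0.02. Idgf3 was nearest to CG7800, the serpin gene Spn77Ba and CG5346, at 0.02 to 0.03. Idgf5 came closest to eas, an ethanolamine kinase gene, the translation factor gene eIF4B and Iml1, at 0.02 to 0.03, and Idgf6 to CG6287, CG9691 and Egfr, the epidermal growth factor receptor gene, at 0.01 to 0.02. All points share the 6 arrays and their 2 ages, so such likeness is mostly that of the age difference. With Pearson's r as the measure, only 5 of the 15 names were the same.

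Arrays of the same age correlated at 0.991 to 0.998 over all probe sets and arrays of different ages at 0.984 to 0.9895. Control transcripts read at both ends differed between the ages. The mean 3′ minus 5′ difference of 5 fly control pairs was 1.83 ± 0.14 on aged and 2.19 ± 0.11 on young arrays, and that of 21 non-fly control pairs was 0.65 ± 0.06 on aged and 0.88 ± 0.03 on young arrays (SD, n = 3 arrays each). In both cases the ages did not overlap, and the two-sided exact permutation p was 0.10, the smallest that 3 against 3 arrays allow. Labelling and age cannot be told apart here, and the Idgf probe sets were read on the same arrays.

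**Figure D4:**
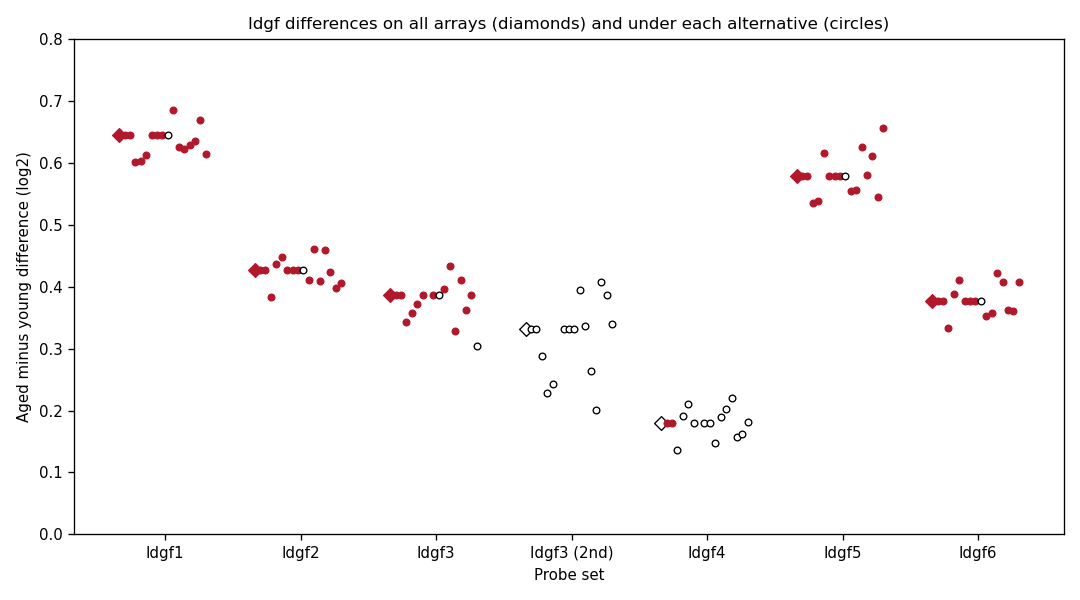
Aged minus young difference (log2, vertical axis) of each Idgf probe set on all 6 arrays (diamonds) and under each alternative fit (circles), filled where called. Every point lies above 0. Among the fits other than the test against a 2-fold threshold, Idgf1, Idgf2, Idgf5 and Idgf6 are filled throughout, and the brighter Idgf3 probe set is open once.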

How the data were processed

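Biotin-labelled RNA of heads was read on Affymetrix arrays, 1 per sample. The deposited values are log2 expression values per probe set. The submitters' processing notes name RMA and limma without versions. RMA normalizes arrays to a common distribution, so a change in total messenger RNA is set aside. Of 18952 probe sets, 183 controls were not tested. Names came from the platform's probe table (13647 probe sets with 1 symbol, 402 with several, 4720 with none here), of which 13544 matched RefSeq gene identifiers.

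Groups followed the sample titles. The ages were compared by limma 3.58.1 (R 4.3.3, lmFit and eBayes, no covariates), adjusted by Benjamini-Hochberg over 18769 probe sets at 0.05. The fit was tested on simulated data. Members and gene lists were chosen with earlier results of these data known. Named were every Idgf probe set, called list members where 6 or fewer were called and otherwise the largest changes (further chitin genes and uncalled list members were named after their values were seen), neighbouring genes, and the 3 nearest profiles. Alternatives were another prior, a level filter, 2 other scalings, array weights, 1 probe set per gene, no shared probe sets, a replicate block, a 2-fold threshold and each array left out. Leaving out aged replicate 3 and young replicate 2 at once was chosen after seeing the data.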

Additional observations from a re-analysis of the deposited data

How the results depend on the processing

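No Idgf difference changed sign under any alternative. Idgf probe sets called numbered 4 to 6 of those tested, apart from the test against a 2-fold threshold, which called 0 of 7 Idgf probe sets and 59 of all 18769. The range without single arrays was 5 to 5 for Idgf probe sets, 2302 to 4027 for all probe sets, 3 to 5 for the chitinase relatives, 8 to 10 for chitin genes, 4 to 6 for haemocyte genes, 0 to 1 for fat body genes, 1 to 2 for clotting genes, 4 to 4 for glial genes, 0 to 1 for neuronal genes and 1 to 2 for photoreceptor genes. With aged replicate 3 and young replicate 2 both left out, 2492 of all probe sets, 4 Idgf probe sets, 1 clotting, 0 neuronal and 1 photoreceptor gene were called. The filter at the median level called 2 neuronal genes. With 1 array left out, fewer samples enter the fit; other causes were not tested. Over all probe sets, 2438 calls were higher and 1633 lower as deposited, against 1859 higher and 1951 lower with arrays centred on their medians. The median of all probe sets was -0.02 as deposited, -0.06 with arrays centred on their medians and 0.00 after quantile normalization. Deviations of same-numbered arrays from their age means correlated little over all probe sets (r = 0.10, -0.02 and -0.06). With 3 arrays per age, such correlations cannot show whether same-numbered arrays shared a batch. With the replicate block, 5 Idgf probe sets were called, as without it, and clotting, neuronal and photoreceptor calls were 1, 2 and 1.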
